A study of Drosophila melanogaster with 23 samples.

Results

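The H3K27ac regions described here are stretches, 50 bp or longer, that lie under a peak in both H3K27ac ChIP-seq libraries of the early Drosophila melanogaster embryo. The libraries held 14975 and 14191 peaks, and 13437 such stretches resulted, of which the 13232 on the chromosome arms X, 2L, 2R, 3L, 3R and 4 were analysed. The series has 23 samples, all of wild-type Oregon-R embryos aged 2 to 3 h after egg laying, with no treated or mutant group. Embryos came from 1 h collections, were aged for 2 h at 25 °C and were fixed with 1.8% formaldehyde for 15 min. Besides H3K27ac, the samples used were 3 ChIP-nexus libraries for each of 6 transcription factors and 2 H3K4me1 ChIP-seq libraries. ChIP-nexus trims the precipitated fragments with an exonuclease, which places the end of a read close to the bound protein. Because whole embryos were used, a region and a summit can come from different cells.

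H3K27ac, acetylation of histone H3 at lysine 27, is carried by nucleosomes around active enhancers and promoters. Bicoid (Bcd) and Caudal (Cad) pattern the head-to-tail axis of the embryo, and Dorsal (Dl) and Twist (Twi) pattern the belly-to-back axis. Zelda (Zld) is the pioneer factor that opens chromatin when the zygotic genome is first transcribed, and GAGA factor (GAF) is known for keeping promoters and other elements open.

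The regions were mostly narrow, with a small number of very wide ones. They covered 10.4 Mb, with a median width of 470 bp and quartiles of 258 and 892 bp. The 2152 regions under 200 bp made up 16.3%, and the 1072 regions of 2000 bp or more made up 8.10% but held 34.6% of the covered sequence. Peaks on the arms had median widths of 477 bp in replicate 1 and 498 bp in replicate 2. Of these peaks, 82.4% of the 14722 in replicate 1 and 86.3% of the 13934 in replicate 2 overlapped a peak of the other library. The 1000 strongest peaks of each library were all shared, against 44.3% and 52.1% of the 1000 weakest. Unshared peaks had median widths of 212 and 224 bp, against 575 bp for shared ones in either library. When peaks needed a −log10 q of 10 or more in both libraries, there were 6182 regions. Read depth is unknown, since the peak lists hold no read counts.

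Each region was ranked by the authors' −log10 p of its covering peak in each library, and the mean of both ranks was used. Genes named for a region overlap it or lie within 500 bp. The region with the best mean rank, 2.5, lay at msl-2, which encodes a subunit of the dosage compensation complex, and at the complex I gene ND-PDSW and Pif1. Next came 2L:6367953-6373275 (dm6, as all coordinates here), ranked 2 and 4, at Nepl4 and at slam, a gene needed for cells to form in the blastoderm. The authors' fold enrichment there was 11.3 in replicate 1 and 10.6 in replicate 2. All 3 libraries of Bcd, Cad, Dl and Twi had a strong summit at this region, while Zld had one in libraries 2 and 3 and GAF had none. Ranks 5 and 3 belonged to X:3859867-3864960 at yin, where all 18 libraries had a strong summit. The other regions among the best 10 lay at Sugb with Pldn and CG14135, at S6KL, at Flacc, at CG7542 with the cyclin T gene CycT, at aru with dbe and PNUTS, at Esyt2, and at CG11018 with hrg and Kpc2. Each of the best 10 had 4 to 6 factors.

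The widest region, 2R:10482346-10496810, covered 14465 bp at lola, a zinc finger gene of axon guidance, and Pef, and every one of the 18 libraries had 2 strong summits there. CycE, the cyclin that drives entry into S phase, had the region 2L:15732123-15746032 of 13910 bp. At CycE, Twi had 7, 6 and 6 strong summits in its 3 libraries, more than the 3, 4 and 4 of Bcd, the 3 each of Cad and Dl, the 2 of Zld and the 1 of GAF. A region of 11720 bp at neur, a ubiquitin ligase of the Notch pathway, was the shared stretch of peaks of 16902 and 11720 bp. The widest 5 were completed by the region at CG11018, hrg and Kpc2 and by one of 11299 bp at CG42394, CG4565, CG6567, CG4511, CG4570, CG14694, CG6574 and SelR. All 5 had 5 or 6 factors.

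How many factors a region had depended on how many summits were used. For equal numbers between libraries, the 5000 strongest summits of each ChIP-nexus library were taken, called strong summits here, and a factor was counted at a region when all 3 of its libraries had a summit inside it or within 500 bp. By this rule 7624 of the 13232 regions (57.6%) had at least 1 factor and 5608 (42.4%) had none. A single factor was found at 2987 regions, 2 at 1667, 3 at 1025, 4 at 805, 5 at 793 and all 6 at 347. With all deposited summits, 11907 regions (90.0%) had at least 1 factor and 4139 had all 6. With strong summits inside the region only, the share with at least 1 factor was 20.1%, and with the 2000 strongest summits it was 35.4%. A total of 610 regions (4.61%) had no summit of any library, however weak. The best ranked region without a factor by all deposited summits was 2L:18146780-18147234 at Socs36E, an inhibitor of JAK/STAT signalling. It is a shared stretch of 455 bp from peaks of 3818 and 5608 bp, which ranked 1367 and 192.

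Regions with more factors were wider and more often carried H3K4me1. The median width was 328 bp without a strong factor, 465 bp with 1, 863 bp with 4 and 2011 bp with all 6. H3K4me1 regions overlapped 1973 H3K27ac regions (14.9% of all), with shares of 4.55% at 0 factors, 9.84% at 1, 32.0% at 4 and 69.7% at 6. The H3K4me1 libraries differed, and the share of all H3K27ac regions overlapped was 45.0% by the peaks of replicate 1 and 17.6% by those of replicate 2. A wide region offers more room for a summit and for an overlap with H3K4me1. The part of width in the H3K4me1 shares was not tested. Counted over whole regions, the share with at least 1 factor went from 31.7% under 200 bp to 90.2% at 2000 bp or more. In a fixed window of 1000 bp around the midpoint it was 29.0% under 200 bp, 43.1% between 200 and 500 bp, 49.3% between 500 and 1000 bp, 43.1% between 1000 and 2000 bp and 49.3% at or above 2000 bp.

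**Figure D1:**
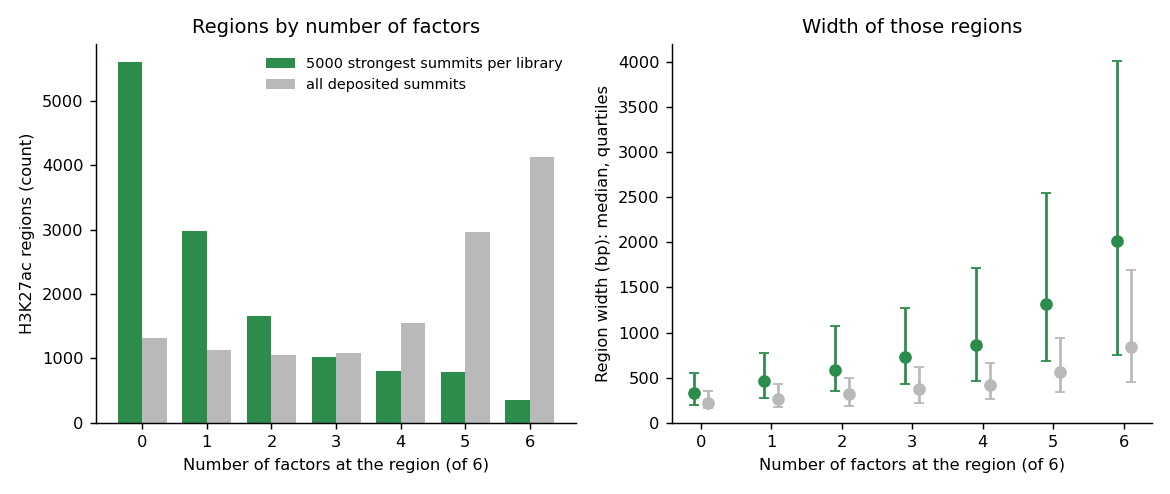
Left, the number of H3K27ac regions (y axis, count) by the number of factors at the region (x axis, of 6), for strong summits and for all deposited summits. Right, the width of those regions in bp as median and quartiles; with strong summits the median rises from 328 bp at 0 factors to 2011 bp at 6.

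With strong summits inside or within 500 bp, Zld was found at most regions and GAF at fewest. The 3 Zld libraries had a strong summit at 35.7%, 35.2% and 35.0% of regions, and the 3 GAF libraries at 16.1%, 16.5% and 16.3%. Dl had values of 30.7%, 31.2% and 28.6%, Cad lay between 28.4% and 29.2%, Bcd between 26.8% and 28.2% and Twi between 27.3% and 27.7%. All GAF libraries were below and all Zld libraries above every library of the other factors. Each factor's mean was compared with the mean of the other 15 libraries by enumerating all 816 choices of 3 libraries out of 18, an exact permutation test that was two-sided, and p-values were adjusted by Benjamini-Hochberg over 6 factors. The smallest adjusted p this design can give is 0.0074. The 16.3% ± 0.210 of GAF (SD, n = 3) was 13.5 points below the 29.8% of the others (−13.5 points, exact permutation, adjusted p = 0.0074). The 35.3% ± 0.374 of Zld (n = 3) was 9.29 points above the 26.0% of the others (exact permutation, adjusted p = 0.0147). For Bcd, Cad, Dl and Twi the adjusted p was 0.957 in the same exact permutation test, which does not show that they are alike, because the low GAF and high Zld libraries widen the spread of the enumerated differences.

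The GAF difference passed without any 1 library and under every alternative, though its size ran from −4.05 points with summits inside only, and −4.20 with the 2000 strongest, to −20.8 with the 10000 strongest, −23.2 among H3K27ac peaks with −log10 q of at least 10 and −23.6 with all deposited summits. The deposited GAF lists held 27568, 31013 and 27232 summits on the arms, against 39696 to 54449 in the libraries of the other factors. The part of list length in the value with all deposited summits was not tested. The Zld difference was less stable. It was 3.99 points with the 2000 strongest summits and 18.3 among H3K27ac peaks with −log10 q of at least 10, and passed in both. It missed the threshold with the 10000 strongest summits (13.4 points), with all deposited summits (6.67) and within 1000 bp (8.50). It also did so without GAF replicate 2 (8.61 points) or 3 (8.60), and without Zld replicate 1 (9.08), 2 (9.33) or 3 (9.45). Without a Zld library the size stayed near the 9.29 points of the main comparison, with 136 choices in place of 816. With peaks of H3K27ac replicate 2 only, that is without replicate 1, the difference missed it too (8.23 points). When only summits inside a region counted, the Zld difference turned to −1.23 points, with a mean of 7.50% of regions for Zld against 9.03% to 10.3% for Bcd, Cad, Dl and Twi and 5.15% for GAF. The labels do not say whether libraries of a factor came from separate embryo collections, so the spread between them may be technical. The p-values do not measure that spread alone, because the enumerated choices mix libraries of different factors.

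By the rule that all 3 libraries must have a summit, Zld was at 4002 regions (30.2% of all), Cad at 3311 (25.0%), Twi at 3276 (24.8%), Bcd at 3093 (23.4%), Dl at 2984 (22.6%) and GAF at 1997 (15.1%). With all deposited summits Twi was at 9758 regions and Zld at 9695. GAF, whose deposited lists were the shortest, was again at the fewest, 6030. Dl was the factor least often alone, at 175 of its regions (5.86%), against 15.3% to 22.8% for the other factors. Its libraries shared fewer of their regions, with a mean of 30.2% of regions per Dl library against the 22.6% in all 3. That gap was wider than for any other factor, and its part in the low Dl values was not tested. Of the Dl regions 2189 (73.4%) had Zld too, which was 54.7% of the Zld regions. The most frequent single combinations were Zld alone at 768 regions and Twi alone at 585. Bcd, Cad, Dl, Twi and Zld without GAF shared 532 regions, with a median width of 1514.5 bp.

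**Figure D2:**
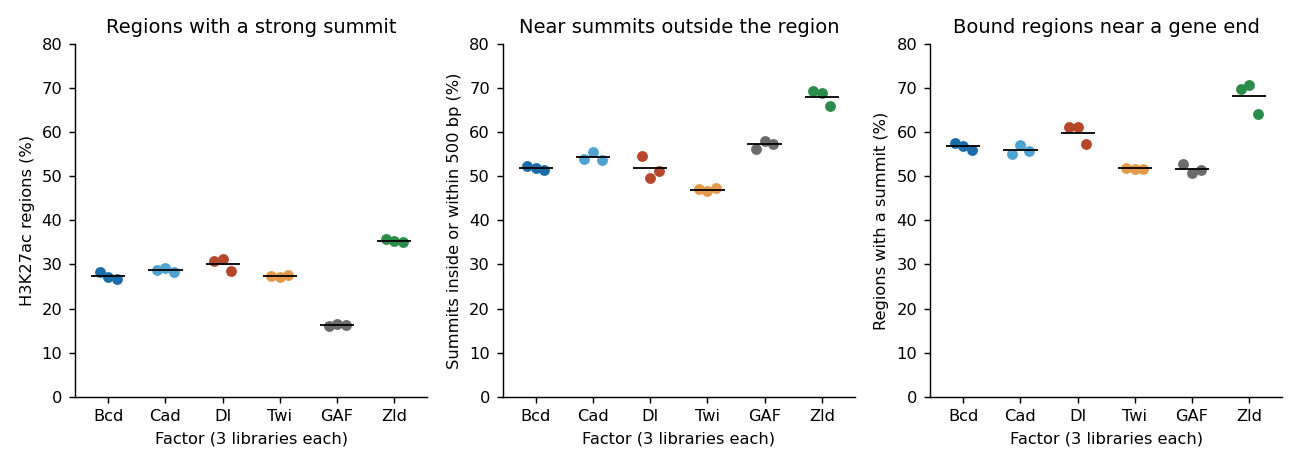
Values of each of the 18 ChIP-nexus libraries (points, 3 per factor) on a y axis in percent: share of H3K27ac regions with a strong summit, share of near summits in the flank, and share of bound regions near a gene end. Zld libraries sit above those of the other factors in all 3 panels, and GAF libraries sit lowest in the share of regions.

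Among strong summits in or near regions, those of Zld lay outside the region more often than those of the other factors. Of the strong summits inside or within 500 bp of a region, 69.4%, 68.8% and 65.8% in the 3 Zld libraries lay outside the region, in its flank. The mean for Zld was 68.0% ± 1.89 (SD, n = 3) against 52.4% over the other 15 libraries, a difference of 15.6 points (exact permutation, adjusted p = 0.0074). GAF had a flank share of 57.2% ± 0.903, Cad one of 54.3% ± 1.0, Bcd one of 51.9% ± 0.465, Dl one of 51.8% ± 2.48 and Twi one of 47.0% ± 0.359. Twi libraries were lower than all others, by 9.66 points on average (−9.66, exact permutation, adjusted p = 0.081), which missed the threshold. The Zld difference was 9.04 points with all deposited summits, where it still passed, and it depended on how close regions were treated. With regions under 500 bp apart joined into one, a choice made with these results in view, it was 4.30 points and no longer passed (exact permutation, adjusted p = 0.108), while GAF then stood 7.85 points above the others and passed (exact permutation, adjusted p = 0.0074).

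The flank summits of Zld clustered close to the edge. The density of strong summits was highest in the 100 bp outside a region for every factor, where Zld had 623 ± 31.8 summits per Mb (SD, n = 3). Dl had 376 ± 30.8, Cad 369 ± 20.3, Bcd 315 ± 12.9, Twi 304 ± 5.01 and GAF 180 ± 5.79 per Mb. Between 100 and 200 bp inside the edge, the density per Mb was 28.5 ± 1.66 for Zld and 29.3 ± 1.88 for GAF, followed by 40.6 ± 3.79 for Cad, 54.2 ± 1.95 for Bcd, 72.8 ± 13.4 for Dl and 82.6 ± 0.313 for Twi. Deep positions inside can only come from wide regions, since a point 500 bp from both edges needs a width of at least 1000 bp. Between 700 and 800 bp inside, Zld had 248 ± 13.7 summits per Mb, against means from 149 (GAF) to 210 (Bcd). Between 1200 and 1300 bp inside, Zld had 166 ± 29.5 per Mb, against means from 94.9 (GAF) to 219 (Twi).

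**Figure D3:**
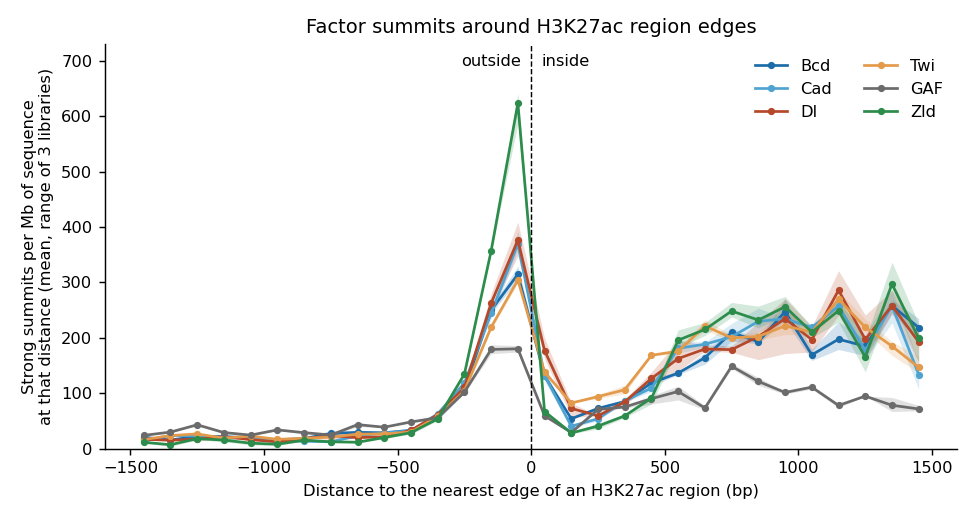
Strong summits per Mb of sequence (y axis) by distance to the nearest edge of an H3K27ac region in bp (x axis, outside negative, inside positive), as the mean of 3 libraries per factor with the range shaded. Every factor is densest in the 100 bp outside the edge, where Zld reaches 623 per Mb and GAF 180 per Mb.

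Many of these flanks were short gaps between neighbouring regions. Gaps of at most 1000 bp numbered 7288, or 55.1% of all gaps, with a median of 221 bp, and 80.1% of regions had such a neighbour. A summit in such a gap can count for both regions. A strong Zld summit lay in 20.8%, 20.4% and 20.3% of these gaps in its 3 libraries. Dl summits lay in 13.6% ± 0.695 of the gaps (SD, n = 3), Cad in 13.5% ± 0.455, Bcd in 12.2% ± 0.410, Twi in 11.1% ± 0.179 and GAF in 7.12% ± 0.145. Per Mb, Zld summits were 6.50 ± 0.422 times as dense in the gaps as inside regions, against means of 2.55 to 3.57 for the other factors. A gene end lay in 1733 of the 7288 gaps (23.8%), and in 47.3% of the 1242 gaps with a summit in all 3 Zld libraries, against 24.3% to 32.6% for the other factors. These gap values were not tested.

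Regions with Zld lay near gene ends more often than regions with other factors. The gene table gives no strand, so both ends of a protein-coding gene were used, and 6829 regions (51.6%) lay within 500 bp of one. Of the regions with a strong summit, 69.7%, 70.8% and 64.0% did so in the 3 Zld libraries. Dl had a mean of 59.9% ± 2.18 (SD, n = 3), Bcd 56.8% ± 0.749, Cad 56.0% ± 0.967, Twi 51.8% ± 0.118 and GAF 51.6% ± 0.999. Zld stood 13.0 points above the other 15 libraries (68.2% ± 3.61 against 55.2%, exact permutation, adjusted p = 0.0074). Differences of −6.66 points for Twi and −6.89 points for GAF missed the threshold (exact permutation, adjusted p = 0.137 for both). The size of the Zld difference fell as weaker summits were added, from 20.9 points with the 2000 strongest to 6.85 with the 10000 strongest and 1.08 with all deposited summits, and it was 8.39 points when H3K27ac peaks needed a −log10 q of 10 or more. The difference passed in each of these.

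Among regions with a single factor, those with Zld also had the highest share near a gene end. Of the 768 regions with Zld alone 89.5% were near a gene end, against 58.9% of the 175 with Dl alone, 47.0% of the 498 with Bcd alone, 43.2% of the 585 with Twi alone, 42.6% of the 505 with Cad alone and 35.3% of the 456 with GAF alone. H3K4me1 overlapped 6.43% of the regions with Bcd alone, 6.77% of those with Zld alone, 9.90% with Cad, 10.9% with Twi, 14.9% with GAF and 16.0% with Dl, where the share over all regions was 14.9%. The best ranked region with Zld alone was X:16447664-16449537 at CG34015 and the translation factor gene eIF4H1. For Bcd alone it lay at the insulator protein gene Cp190 and at CG4338, for Cad alone at CG11836, shams and CG11920, for Twi alone at x16 and nop5, and for GAF alone at Hel25E, an RNA helicase of mRNA export, and the nuclear lamin gene Lam. For Dl alone it lay at Cnot4, CG17768, LSm-4, Ir31a, Ip259 and the ribosomal protein gene RpS27A. A factor alone means that no other factor had a strong summit in all 3 of its libraries. At each of these 6 regions another factor had a strong summit in some but not all of its libraries. By all deposited summits, each of the 6 had 5 or 6 factors. Of the 134 regions with Zld alone by all deposited summits, 50.0% were near a gene end, against 22.7% to 30.6% for the other factors alone by that rule.

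The best ranked regions with all 6 factors lay at yin, at aru with dbe and PNUTS, at CG11018 with hrg and Kpc2, at trbl, and at tapas with the Mediator gene MED8 and CG8929. The region at trbl, an inhibitor of mitosis in the gastrulating mesoderm, was 3L:20401745-20402694, 950 bp wide and 135 bp from the gene. It had 2 strong summits in every library of Bcd, Dl and Zld and 1 in every library of Cad, Twi and GAF.

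Better ranked regions had factor summits more often. Among the best ranked 1324 regions, 72.4% ± 2.21 had a strong Zld summit (SD, n = 3), 68.1% ± 4.65 one of Dl, 62.7% ± 1.41 of Cad, 57.9% ± 1.42 of Bcd, 54.9% ± 0.907 of Twi and 30.0% ± 0.567 of GAF. Among the 1323 regions with the poorest ranks all factors lay between 9.70% and 12.1%. Width moved with rank, with medians of 1896.5 bp and 186 bp, and so did the share near a gene end, from 86.0% to 25.3%, and the overlap with H3K4me1, from 47.5% to 3.40%. In the fixed window at the midpoint, the share with at least 1 factor went from 59.1% to 27.2%. The part of width and gene ends in the relation to rank was not tested.

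**Figure D4:**
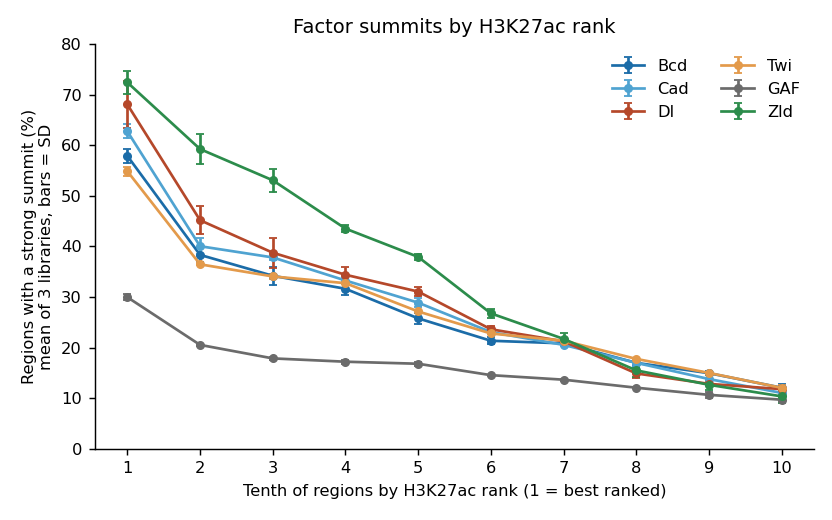
Percentage of H3K27ac regions with a strong summit (y axis, mean of 3 libraries, bars SD) in 10 equal groups of regions ordered by mean H3K27ac rank (x axis, 1 is best ranked). The factors spread from 30.0% for GAF to 72.4% for Zld in the best group and meet between 9.70% and 12.1% in the last.

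A gene was called marked when a region overlapped its body or the 500 bp on either side, and 7680 of 13922 protein-coding genes (55.2%) were. A region can mark a gene through its neighbour. The share was 35.7% among the 3481 shortest genes and 67.0% among the 3481 longest. A total of 572 genes had 5 or more regions. The most marked sequence lay at the transcription factor genes jing (43747 bp), lola (33808 bp) and hth (33446 bp), chosen after their values were seen. Of the marked genes, 1988 (25.9%) had 4 or more strong factors over all their regions, and 42.6% did among the 3481 longest genes.

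The lists of anteroposterior patterning genes had between 3 of 7 and 6 of 8 of their genes marked, on both sides of the 55.2% of all genes. Median gene lengths ran from 2439.5 bp in the pair-rule list to 30563 bp in the Hox list, against 2163 bp over all genes. Of the 12 gap and head gap genes 8 were marked, and 7 of these 8 (87.5%) had 4 or more factors. Of all marked genes 25.9% did, and 42.6% of those among the 3481 longest genes. The POU gene nub had 6972 bp in 9 regions, hb had 4897 bp in 5 regions, and oc had 1676 bp in 5 regions with Bcd, GAF and Zld. In replicates 1 and 2, hb was covered over 5432 and 5699 bp. A gene counted however short the overlap, and hkb was marked over 2 bp and gt over 167 bp, with 5 and 4 factors. The unmarked gap genes were btd, ems, knrl and tll, the last with 129 bp in replicate 2 only. Of 8 pair-rule genes 6 were marked, all with 4 or more factors, led by run (4213 bp), opa (3405 bp) and ftz (2298 bp). The pair-rule genes prd, with 823 bp in replicate 1 only, and slp2 were unmarked. Of 7 segment polarity genes 3 were marked, the Hedgehog receptor ptc (11141 bp), its ligand hh (3098 bp) and the Wnt ligand wg (1154 bp), while en, gsb, inv and mid were not. Ubx had 24185 bp in 34 regions, Antp 9074 bp in 19 and abd-A 2506 bp in 6, among 4 marked of 8 Hox genes. The Hox genes Abd-B, Dfd, lab and pb were unmarked.

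The 3 lists of dorsoventral patterning genes had between 8 of 12 and 8 of 10 of their genes marked, against 55.2% of all genes. Median gene lengths in these lists ran from 6561 to 10926 bp, against 2163 bp over all genes, and of the 3481 longest genes 67.0% were marked. Of all marked genes 25.9% had 4 or more factors, and 42.6% of those among the 3481 longest. Of 12 mesoderm genes 8 were marked, all with 4 or more factors, led by twi (6465 bp), Mes2 (4314 bp) and the FGF ligand ths (3446 bp). The unmarked ones were pyr, the other FGF ligand, stumps, tin and wntD, and stumps had 2982 bp in replicate 1 only. Of 10 neurectoderm genes 8 were marked, led by neur (19596 bp), the EGF receptor ligand vn (4891 bp) and vnd (4746 bp), while ind and sim were not. Of 13 dorsal ectoderm genes 9 were marked and 8 of these had 4 or more factors. The BMP ligand dpp had 6759 bp, the GATA factor srp 6609 bp and its partner ush 4643 bp, while Doc2, Doc3, peb and pnr were unmarked.

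Genes of the first zygotic wave and the cell cycle were marked throughout, against 55.2% of all genes. Of all marked genes, 25.9% had 4 or more factors. All 8 genes of cellularization and early zygotic transcription were marked and had 4 or more factors, led by Sry-alpha (3889 bp), slam (2643 bp) and term (1700 bp). All 6 sex determination genes were marked with 4 or more factors, among them Sxl, the switch gene of female development, with 7925 bp, upd1 with 3368 bp and da with 2455 bp. All 8 cell cycle genes were marked, led by CycE (17706 bp), trbl (4805 bp) and the mitotic cyclin CycB (3926 bp), and 7 had 4 or more factors. Of 8 genes for maternal and opening factors 5 were marked (62.5%, against 55.2% of all genes). They were led by zld (14388 bp), Trl, which encodes GAF (4610 bp), and bcd (2790 bp). The genes dl, osk and pgc were unmarked.

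Of 85 ribosomal protein genes 83 were marked (97.6%, against 55.2% of all genes), with RpS10a and RpS5b the exceptions. Of these 83, 16 (19.3%) had 4 or more factors, against 25.9% of all marked genes, and 9 (10.8%) had no strong factor, against 25.4% of all marked genes. Zld was at 57 of them (68.7%) and GAF at 8 (9.64%), against 50.5% and 21.5% of all marked genes. Ribosomal protein genes are short, and of the marked genes among the 3481 shortest, 44.5% had Zld, 10.9% had GAF and 33.8% had no strong factor. RpS5a had 2637 bp, RpS3A 2489 bp and RpL13A 2460 bp. Of 40 genes for complex I of the respiratory chain 35 were marked, and 16 of these (45.7%, against 25.4% of all marked genes) had no strong factor, among them ND-MLRQ with 3727 bp. ND-15 had 3117 bp with Bcd, Cad and Zld, and ND-39 had 3062 bp with Dl, Twi, GAF and Zld. ND-20L, ND-24L, ND-49L, ND-51L2 and ND-B14.5AL were unmarked.

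Genes of later tissues served as a contrast to the patterning genes, and their marking cannot date the embryos to 2 to 3 h. Of 70 cuticle protein genes of the Cpr family 4 were marked (5.71%), and of 59 odorant receptor genes 5 (8.47%). The share was 55.2% over all genes and 35.7% among the 3481 shortest. Cpr60D had 1725 bp, Cpr78Cc 160 bp and Cpr78Cb 22 bp. Or85f had 2362 bp of a region of 6599 bp, Or22a 1824 bp of one of 3490 bp and Or22b 1524 bp of one of 2091 bp, all 3 wider than the marked stretch. Heat shock genes were close to the share over all genes, with 11 of 19 marked (57.9%), and 2 of these 11 (18.2%, against 25.9% of all marked genes) had 4 or more factors. Hsp83 had 3606 bp with Bcd and Twi, Hsp110 1428 bp with Bcd, Cad, Twi and GAF, and Hsp23 814 bp with none. The Hsp70 copies are near-identical, so their marking is uncertain.

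**Figure D5:**
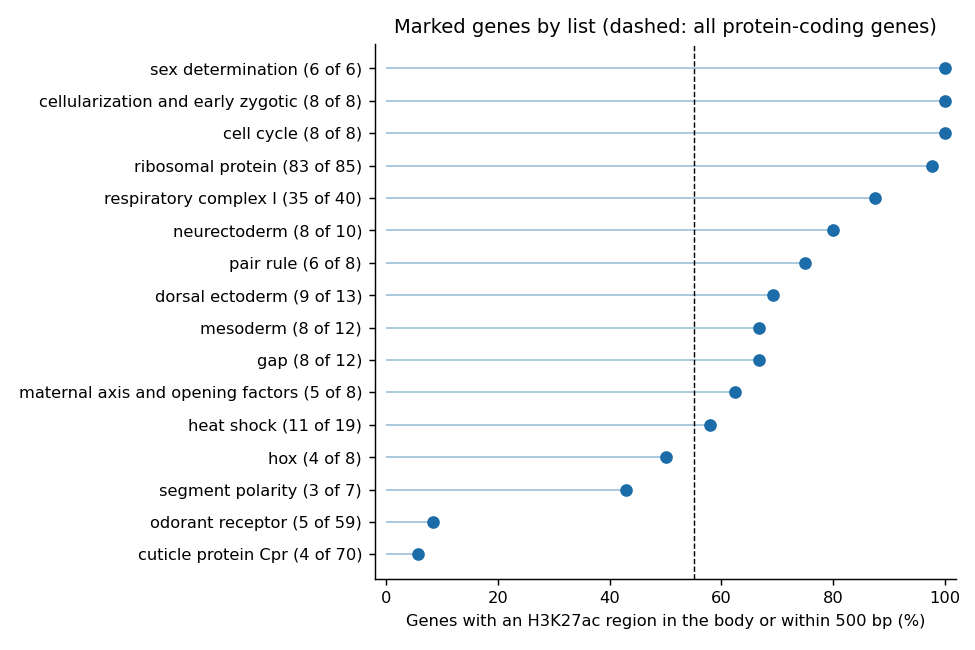
Percentage of genes with an H3K27ac region in the body or within 500 bp (x axis) for each gene list (y axis); the dashed line is the share of all protein-coding genes, 55.2%. Ribosomal protein, cell cycle, cellularization and sex determination genes sit at or near 100%, cuticle protein and odorant receptor genes under 10%.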

How the data were processed

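The authors deposited 1 peak list per library in narrowPeak layout, called per library. The submitters' processing notes name cutadapt 2.5, Bowtie2 2.3.5.1, MACS2 2.2.7.1 and dm6, without roles or settings. In the deposited lists column 7 is the fold enrichment, a linear ratio, and columns 8 and 9 are the −log10 of the p-value and q-value. These values are the authors' own and served for ranking and filtering inside each list. The last column gives the summit. Groups and replicate numbers came from the sample titles. The deposited GAF and Zld lists carry other numbers than the titles, which leaves these library numbers uncertain. The sample of whole cell extract was not used here.

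Regions were intersected and summits assigned with Python 3.11.15, NumPy 2.4.6 and pandas 2.3.3, figures drawn with Matplotlib 3.10.9, and the scripts tested on simulated data. Strong summits were the 5000 with the highest −log10 p in each library on the 6 arms, ties by fold. Gene ends and symbols came from a RefSeq table of Release 6, the assembly called dm6. It gives no strand, so the planned use of transcription starts was not run, and gene ends stand in. The members and gene lists were chosen with earlier results of these data known. All symbols of the lists matched except 1 pair-rule and 1 maternal gene, not reported here. Regions named were the 10 best ranked, the 5 widest, the 5 best with all 6 factors, the best for each factor alone and the best with no factor by all deposited summits. Genes named were those at these regions, the 3 with most marked bp of each list and, where 5 or fewer were unmarked, those. Alternatives varied the number of summits, the distance, the threshold on H3K27ac peaks, the ranking, the libraries and the gene window.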

Additional observations from a re-analysis of the deposited data

Results flagged for a closer look

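Outside the 6 arms, in sequence no comparison above uses, 205 further H3K27ac regions were covered in both libraries, which put them on the list of signals outside the main measurement. They lay on 88 sequences, 60 of them on the Y chromosome, with a median width of 252 bp and 62.4 kb in all. There is no control list for these sequences.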

How the results depend on the processing

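Depth is unknown, so no counting error can be given for a region or summit. Differences are a factor's mean minus that of the other libraries, in percentage points. The GAF difference in the share of regions passed under all 10 alternatives and without each single library (−13.7 to −13.1), and the Zld difference near gene ends passed under all 9 (1.08 to 20.9) and without each single library (11.7 to 15.0). The Zld flank share passed under 10 of 11 alternatives and without each single library (14.9 to 16.6); with regions under 500 bp apart joined it was 4.30, where GAF passed at 7.85. The Zld share of regions passed under 5 of 10 alternatives. It missed the threshold with 10000 summits (13.4, exact permutation, adjusted p = 0.059), all deposited summits (6.67), a distance of 1000 bp (8.50) and without H3K27ac replicate 1 (8.23), was −1.23 with summits inside only, was 7.90 without H3K27ac replicate 2, and lay between 8.58 and 9.66 without single ChIP-nexus libraries. The causes were not tested. Transcription starts in place of gene ends were not run, since the gene table gives no strand.

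Differences that had not passed and changed sign were, for the share of regions, Twi at 0.268 with 2000 summits, Bcd at 2.41 and Twi at 0.481 with 10000, Bcd at 5.35, Dl at −0.441 and Twi at 6.52 with all summits, Bcd at 0.657 and Twi at 2.09 inside only, Bcd at 0.402 and Twi at 0.435 within 1000 bp, Twi at 0.318 without H3K27ac replicate 2 and Bcd at 0.253 without replicate 1. Without single ChIP-nexus libraries Bcd ranged from −1.03 to 0.372 and Twi from −1.0 to 0.399. For the flank share they were Dl at 0.160 with 2000 summits, Bcd at 0.135, Cad at 0.957 and GAF at −0.649 with 10000, Bcd at 0.422, Cad at 2.24 and GAF at −3.23 with all summits, GAF at −0.426 ranked by fold, and Cad at 0.435 and GAF at −2.0 with H3K27ac −log10 q of at least 10. Cad ranged from −1.48 to 0.145 without single ChIP-nexus libraries and was −2.20 without H3K27ac replicate 2. Near gene ends they were Bcd at 0.650 and Cad at 0.884 with 10000, Cad at 0.173 with all summits, Dl at −0.084 ranked by fold and Bcd at 1.22 with −log10 q of at least 10, and Bcd ranged from −1.20 to 0.228 without single libraries. Differences that newly passed were the flank share of Twi within 1000 bp (−9.54), and near gene ends GAF with 10000 summits (−7.05) and with −log10 q of at least 10 (−5.85) and Twi with all summits (−1.19).

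H3K27ac −log10 q of at least 10 left 6182 regions. The share with at least 1 factor was 90.0% with all summits, 35.4% with 2000, 73.3% with 10000, 62.4% when 2 of 3 libraries sufficed, 20.1% inside only, 66.0% within 1000 bp, 75.3% with −log10 q of at least 10, 42.9% in the midpoint window, and 54.8% and 55.2% without H3K27ac replicate 2 and 1. The share of genes marked was 50.1% over the body only, 62.7% within 2000 bp, 52.3% within 500 bp of a gene end, 46.9% with −log10 q of at least 10, and 57.0% and 56.7% without replicate 2 and 1. Joining regions under 500 bp apart, the midpoint window and the gene end rule were chosen after the data were seen.

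Deviations of same-numbered libraries had correlations of −0.02 to 0.04 over 45 pairs (median 0.005). Over 90 pairs of different number they were −0.03 to 0.03 (median −0.002). Of 18 libraries, 9 correlated best with their own number. The numbers of the GAF and Zld libraries are uncertain, so a pairing by number could be neither shown nor excluded. With the replicate block, 216 splits, no call changed, and the differences stayed by construction at −13.5 and 9.29 points for GAF and Zld in the share of regions, 15.6 for Zld in the flank share and 13.0 for Zld near gene ends. The adjusted p in the exact permutation test was then 0.0278 for GAF and 0.0417 for Zld in the share of regions, and 0.0278 for Zld in the flank share and near gene ends.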

Other observations

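Chromosome 4 stood apart from the other arms in its H3K27ac regions. It had 403 regions, and 79 of its 80 protein-coding genes were marked, against 53.7% to 58.2% on the other arms. That was 504 regions per 100 genes, against 88.5 to 99.5 elsewhere. A strong factor was found at 29.0% of its regions, against 57.6% to 59.6% on the other arms, and 30.5% lay near a gene end, against 51.1% to 54.3%. On the X, GAF was at 20.2% of regions, against 13.2% to 16.3% on 2L, 2R, 3L and 3R and 7.20% on chromosome 4, while the share of Zld on the X was 31.5% against 29.5% to 32.3% on 2L, 2R, 3L and 3R. These differences between arms were not tested.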
